A study of Homo sapiens with 2 samples.

Results

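The BCL2 family decides whether the outer mitochondrial membrane stays intact during cell stress. Its anti-apoptotic members hold the effector proteins BAX and BAK1 in check, and BH3-only members release or activate those effectors through a short helix, the BH3 motif. Pancreatic adenocarcinoma cells are known to lean on MCL1 and on BCL-XL, the main product of BCL2L1, for survival.

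The 10 genes described here were chosen by symbol from the 58735 gene rows of the counts table, and all 10 were found there. They are the anti-apoptotic MCL1, BCL2L1 and BCL2L2, the effectors BAX and BAK1, and the BH3-only genes BID, BMF, BCL2L11, PMAIP1 and BBC3. RNA-seq counts were available for 1 library of dihydroartemisinin-treated cells (label DHA) and 1 library of cells with the label NC, called untreated after the design text. Dihydroartemisinin is the active metabolite of the artemisinin antimalarials. Both libraries came from a highly metastatic derivative of SUIT-2, a human pancreatic adenocarcinoma line, and the sources used here give no genotype, dose, exposure time or vehicle. With 1 library per group there is no replicate error, no p-value was computed, and every "higher" or "lower" compares these 2 libraries alone.

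The DHA library held 14521101 counted reads and the untreated library 15452609. Of 9 genes typical of pancreatic ductal epithelium, 6 had at least 50 reads in a library, and all 6 were lower in the DHA library. Among these, MUC1 and CDH1 reached 50 reads only in the untreated library. The other 3 were below the read minimum and did not all go the same way. S100P had 10 reads in the DHA library and 0 in the untreated library, CEACAM6 12 and 3, and KRT7 26 and 49. The list of 9 summed to 1314 CPM (counts after scaling for library size) in the DHA library and 3326 CPM in the untreated library. The protocol text names retina, but 8 retinal markers together had 15 reads in the DHA library and 26 in the untreated library, and SAG, GNAT1, RCVRN and CRX had 0 in both. Leukocyte markers summed to 8 and 11 reads in the DHA and untreated libraries, fibroblast markers to 12 and 105, and endothelial markers to 66 and 281, of which PECAM1 had 54 and 280. In bulk RNA, fewer cells of a type and less RNA per cell cannot be told apart, and the part that a shift in cell makeup has in the values below was not tested.

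The motif that the 10 genes have in common is shown first, because it is what makes them 1 family while their transcripts went different ways. Each line gives the 9 codons of the BH3 core in the coding strand, from GENCODE 29 transcripts on GRCh38. Capitals mark the first codon, leucine or in BCL2L2 methionine, and the sixth codon, the conserved aspartate.
MCL1 (chr1:150578868-150578894, minus strand): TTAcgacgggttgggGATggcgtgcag
BCL2L1 (chr20:31721925-31721951, minus strand): CTGagggaggcaggcGACgagtttgaa
BCL2L2 (chr14:23307903-23307929, plus strand): ATGcgggcagctggaGATgagttcgag
BAX (chr19:48955787-48955813, plus strand): CTCaagcgcatcgggGACgaactggac
BAK1 (chr6:33575390-33575416, minus strand): CTCgccatcatcgggGACgacatcaac
BID (chr22:17739418-17739444, minus strand): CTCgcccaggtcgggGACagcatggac
BMF (chr15:40104198-40104224, minus strand): CTTcagtgcattgcaGACcagttccac
BCL2L11 (chr2:111150103-111150129, plus strand): TTGcggcgtattggaGACgagtttaac
PMAIP1 (chr18:59902673-59902699, plus strand): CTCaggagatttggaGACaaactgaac
BBC3 (chr19:47226582-47226608, minus strand): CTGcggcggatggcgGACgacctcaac

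Each stretch lies within 1 coding exon, and the search found 1 match in each of the 10 reading frames. The search took leucine or methionine, any residue pair, then isoleucine, valine, alanine, methionine or phenylalanine, then glycine or alanine, and aspartate. That pattern was written to take the known family members, so this describes them and tests nothing. The fifth codon is glycine in 8 genes and alanine in BMF and BBC3.

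The family did not go one way. MCL1 and BAK1 exceeded 2-fold on the side of the DHA library, BMF exceeded it on the side of the untreated library, and 6 others with enough reads lay between. A gene passed this size rule with at least 50 reads in a library, a scaled ratio of at least 2-fold and a 95% counting interval that excluded 1. BMF met the read minimum only in the untreated library, with 57 reads against 14 in the DHA library. Of all 12064 genes with enough reads, 6.72% passed it on the higher side and 10.3% on the lower side, beside 2 and 1 of the 9 members with enough reads. Those 9 had a median log2 ratio of 0.53 with 5 above 0. Over all 12064 genes the median was 0.04, and 52.2% were above 0. At 1.5-fold, 18.9% of all genes were higher and 19.2% lower, and the members were 3 higher (MCL1, BAK1 and BCL2L2) and 3 lower (BID, BMF and BCL2L11). Counting intervals excluded 1 for 8 of the 9 members with enough reads and for 75.3% of the 12064 genes, and they cover counting error only.

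**Figure D1:**
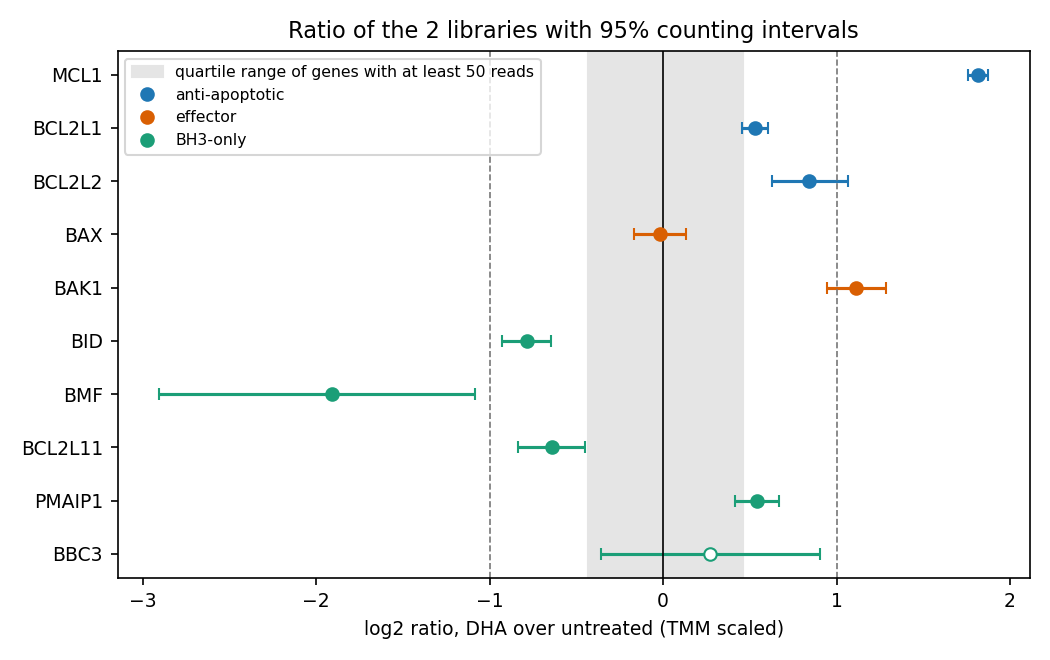
Log2 of DHA over untreated (x axis) for each of the 10 genes, coloured by role, with bars for 95% counting intervals, dashed lines at 2-fold, and grey for the range between the quartiles of genes with at least 50 reads. MCL1 at 1.81 and BAK1 at 1.11 lie beyond the upper line, BMF at -1.91 beyond the lower one, and the open symbol is BBC3, which had fewer than 50 reads in both libraries.

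Among the anti-apoptotic genes, MCL1 stood out. MCL1 encodes a short-lived guardian that binds BAK1 and several BH3-only proteins. It had 9830 reads in the DHA library and 2951 in the untreated library, or 674 and 192 CPM. The ratio was 3.52-fold (95% counting interval 3.38 to 3.67), the 147th highest of the 12064 genes. MCL1 (ENSG00000143384) lies on the minus strand at chr1:150574551-150579738, and overlapping exons of other genes cover 0.05% of its exon length.

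BCL2L1, which encodes BCL-XL, had 3449 reads in the DHA library against 2520 in the untreated library, 237 and 164 CPM. Its ratio of 1.45-fold (1.37 to 1.52) did not pass the size rule. On the opposite strand the antisense gene ABALON covers 43.0% of the exon length of BCL2L1, and it had 64 reads in the DHA library and 87 in the untreated library. BCL2L2, which encodes the related guardian BCL-W, had 471 reads in the DHA library and 277 in the untreated library. At 1.79-fold (1.55 to 2.09) it too fell short of 2-fold. Other genes share 24.3% of its exon length, and 19.4% belongs to the readthrough gene BCL2L2-PABPN1, which had 7 and 5 reads in the DHA and untreated libraries. All 3 guardians thus had more scaled reads in the DHA library, summing to 13750 reads there and 5748 in the untreated library, and 9830 and 2951 of these were MCL1. Counts per gene do not separate the long and short splice forms of MCL1 and BCL2L1, whose products are known to have opposite effects on survival, and no protein was measured.

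The effectors BAX and BAK1, which form the pores that release cytochrome c, differed from each other. BAK1 had 851 reads in the DHA library and 415 in the untreated library, 58.4 and 26.96 CPM. The ratio was 2.16-fold (1.92 to 2.44), so the interval reaches below 2-fold. BAX had 719 reads in the DHA library and 769 in the untreated library, 49.3 and 49.95 CPM, with a log2 ratio of -0.02 (-0.17 to 0.13). Within a library the ratio of reads of 2 genes does not depend on scaling. There were 0.845 BAX reads per BAK1 read in the DHA library and 1.85 in the untreated library, and the first ratio was 0.456 times the second (exact 95% interval 0.389 to 0.534). BAX shares no exon bases with another gene, and BAK1 shares 4.11%.

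The BH3-only genes split. BMF, a sensor that in other settings is held on the cytoskeleton through dynein light chains, had 14 reads in the DHA library and 57 in the untreated library. That is 3.75-fold lower (2.12 to 7.49), with the widest interval of the 3 members that passed. BMF reached the read minimum only in the untreated library. BID, which links death receptor signalling to mitochondria once caspase-8 cleaves it, had 633 reads in the DHA library and 1152 in the untreated library, 1.72-fold lower (1.56 to 1.90). BCL2L11, which encodes BIM, an activator of BAX and BAK1, had 356 reads in the DHA library and 586 in the untreated library, 1.56-fold lower (1.36 to 1.78). Neither BID nor BCL2L11 passed the 2-fold rule. The long non-coding gene MIR4435-2HG lies opposite BCL2L11 and covers 10.9% of its exon length, and it had 600 reads in the DHA library and 584 in the untreated library.

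PMAIP1 and BBC3 were on the other side of 0. PMAIP1 encodes NOXA, which binds MCL1 with preference. It had 1182 reads in the DHA library and 857 in the untreated library, 81.1 and 55.7 CPM, and a ratio of 1.46-fold (1.33 to 1.59) that did not pass. BBC3 encodes PUMA, which binds all the guardians. With 48 reads in the DHA library and 42 in the untreated library it was below the read minimum, and its log2 ratio of 0.27 had an interval of -0.36 to 0.90, so no difference was detectable at this depth. The 5 BH3-only genes summed to 2233 reads in the DHA library and 2694 in the untreated library, a log2 ratio of -0.19 (-0.27 to -0.11). Divided by gene length the sum had the opposite direction, 50.9 RPKM (scaled reads per kilobase of annotated exon, on the CPM scale) in the DHA library and 48.99 RPKM in the untreated library, so the group sum has no direction that holds on both scales.

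Divided by gene length, the order of the genes changed at the top and in the middle. On the RPKM scale, levels of different genes can be set side by side. In the DHA library MCL1 led at 154 RPKM, followed by BCL2L1 at 71.4, PMAIP1 at 36.3, BAK1 at 26.4, BAX at 19.1, BID at 9.77, BCL2L2 at 7.71, BCL2L11 at 3.67, BBC3 at 1.04 and BMF at 0.176 RPKM. In the untreated library BCL2L1 led at 49.4 RPKM, then MCL1 at 43.9, PMAIP1 at 24.9, BAX at 19.3, BID at 16.8, BAK1 at 12.2, BCL2L11 at 5.72, BCL2L2 at 4.30, BBC3 at 0.858 and BMF at 0.680 RPKM. Counting intervals of neighbours in this order did not overlap, except BBC3 (0.618 to 1.16) and BMF (0.515 to 0.881) in the untreated library. MCL1 and BCL2L1 changed places, but only per length, since MCL1 had more reads than BCL2L1 in both libraries. BCL2L2 and BCL2L11 also changed places, and BAK1 stood above BAX and BID in the DHA library and below both in the untreated library. The deposited length joins all annotated exons of a gene, so RPKM understates a gene whose cells use a short form.

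**Figure D2:**
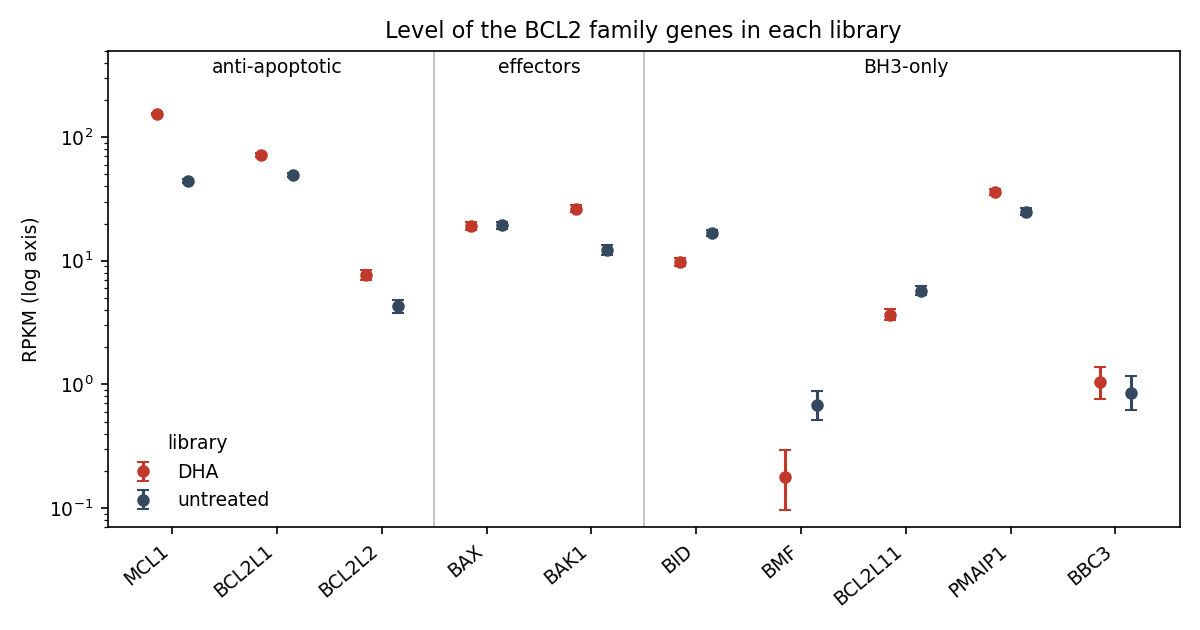
RPKM on a log axis for each gene in the DHA library (red, left of each pair) and the untreated library (dark, right), with exact 95% Poisson intervals of the counts. MCL1 is at 154 and 43.9 RPKM in the DHA and untreated libraries, and BMF is the lowest gene in both, at 0.176 and 0.680 RPKM.

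As a share of the summed RPKM of the 10 genes, MCL1 held 46.8% in the DHA library and 24.6% in the untreated library. BCL2L1 held 21.7% and 27.7% in the DHA and untreated libraries, although its own ratio was above 1. The 3 guardians together held 70.8% in the DHA library and 54.8% in the untreated library. The effectors held 13.8% in the DHA library and 17.7% in the untreated library, and the BH3-only genes 15.4% and 27.5%. The summed RPKM of the effectors was 45.5 in the DHA library and 31.5 in the untreated library, and that of the BH3-only genes 50.9 and 48.99. Neither RPKM sum was lower in the DHA library, but in reads the BH3-only sum was, 2233 against 2694 in the untreated library. Over all 10 genes the summed RPKM was 330 in the DHA library and 178 in the untreated library, and without MCL1 it was 176 and 134.

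**Figure D3:**
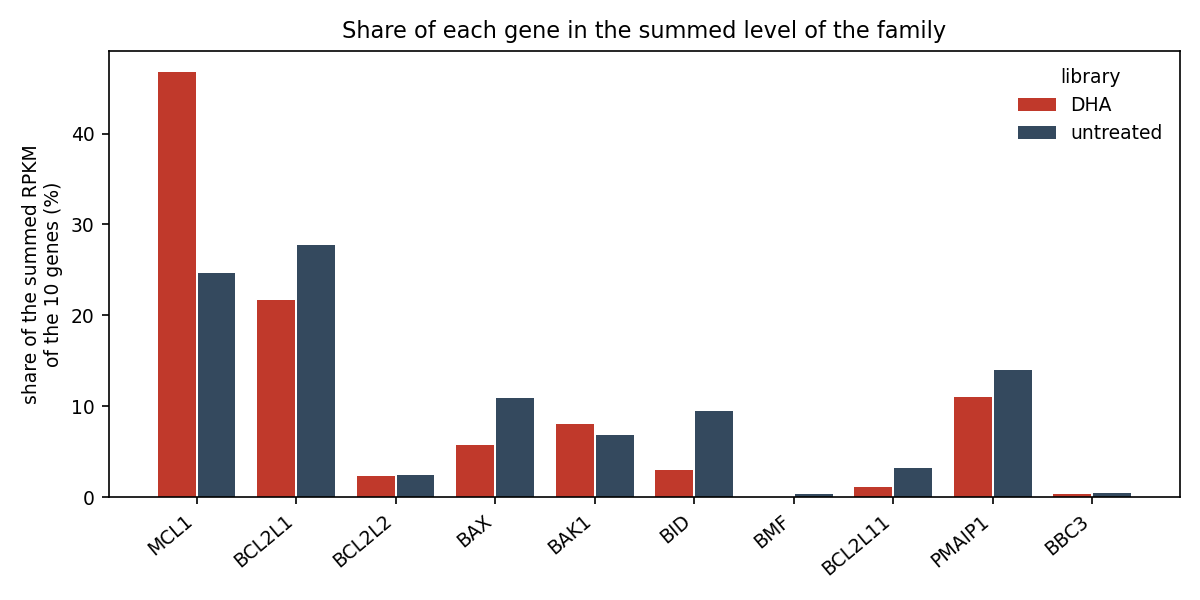
Share of each gene in the summed RPKM of the 10 genes, in percent, for the DHA library (red, left of each pair) and the untreated library (dark, right). MCL1 holds 46.8% in the DHA library and 24.6% in the untreated library, and BID holds 2.96% and 9.45%.

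Ratios within a library were compared for all 45 pairs of members. MCL1 stood higher against each of the other 9 in the DHA library. That direction follows from its own log2 ratio of 1.81, the highest of the members, and is not a separate result. There were 2.85 MCL1 reads per BCL2L1 read in the DHA library and 1.17 in the untreated library, a change of 2.43 times (exact 95% interval 2.28 to 2.60). Against PMAIP1, whose product binds the MCL1 protein, the change was 2.42 times (2.19 to 2.66). It was smallest against BAK1, 1.62 times (1.43 to 1.84), and 6.06 times (5.45 to 6.75) against BID and 5.48 times (4.77 to 6.31) against BCL2L11. Against BMF the change was 13.6 times, with an interval of 7.45 to 26.4 that reflects the 14 BMF reads.

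The interval excluded 1 in 38 of the 45 pairs and included it in 7. These 45 pairs restate 10 ratios, and the share over pairs of all genes was not computed. For single genes, the counting interval excluded 1 for 75.3% of the 12064 genes with enough reads. The ratio of BCL2L1 to PMAIP1 was 2.92 in the DHA library and 2.94 in the untreated library, a change of 0.992 times (0.895 to 1.10). For BID against BCL2L11 the change was 0.905 times (0.766 to 1.07), and for BCL2L2 against BAK1 it was 0.829 times (0.683 to 1.01). The other 4 pairs whose interval included 1 hold BBC3, whose few reads give wide intervals, for example 0.521 to 1.28 against BAX. An interval that includes 1 does not show that a pair moved alike.

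Beyond the 10 genes, 14 other family members and BH3-like genes were looked at, and 10 had enough reads. The mitophagy receptor genes BNIP3 and BNIP3L, hypoxia-responsive and only BH3-like, were higher. BNIP3 had 2424 reads in the DHA library and 1114 in the untreated library (2.30-fold), the most of the list, and BNIP3L had 1975 and 889 (2.35-fold). BCL2L15, a little-studied relative, had 20 reads in the DHA library and 186 in the untreated library, 8.61-fold lower (5.54 to 14.8). BCL2L15 reached the read minimum only in the untreated library. Of the 10, 2 were thus higher and 1 lower, beside 6.72% and 10.3% of all 12064 genes. The lower side depended on the setting. BIK, with 33 reads in the DHA library and 68 in the untreated library, had a log2 ratio of -0.95 (-1.61 to -0.34). It was called lower with upper-quartile scaling and at 1.5-fold, where 19.2% of all genes were lower. At a minimum of 200 reads BCL2L15 was not tested. The median log2 ratio of the 10 was 0.30. BCL2 itself, the founding guardian, had 100 reads in the DHA library and 91 in the untreated library, with a log2 ratio of 0.21 (-0.21 to 0.64). The guardian genes BCL2A1 and BCL2L10 and the BH3-only gene HRK had 0 reads in both libraries, which allows up to 0.206 CPM in the DHA library and 0.195 CPM in the untreated library.

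Downstream of the mitochondria, 17 of 18 genes of cytochrome c release, the apoptosome, caspases and their inhibitors had enough reads, with a median log2 ratio of 0.08. CASP9, the initiator caspase of the apoptosome, was the 1 gene called higher, with 362 reads in the DHA library and 167 in the untreated library (2.29-fold, 1.90 to 2.77), and 0 were called lower. Over all 12064 genes, 6.72% were called higher and 10.3% lower. VDAC1, a pore of the outer membrane and the gene with the most reads, had 8220 reads in the DHA library and 14344 in the untreated library, a log2 ratio of -0.72. In the death receptor arm 2 of 10 genes were higher and 0 lower, beside those same shares of all genes, with a median of 0.44. The 2 were the TRAIL receptor genes TNFRSF10B, with 3634 reads in the DHA library and 993 in the untreated library (3.86-fold), and TNFRSF10A, with 696 and 341 (2.15-fold). TNFRSF1A, the TNF receptor with the most reads of that list, had 3929 reads in the DHA library and 3058 in the untreated library, a log2 ratio of 0.44.

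Of 15 transcription factors known to act on BCL2 family genes, 7 were higher and 2 lower, with a median log2 ratio of 0.78. Over all 12064 genes the shares were 6.72% higher and 10.3% lower. This list was chosen with earlier results of these data known, so its counts are only descriptive. The stress factors ATF3, DDIT3 and ATF4 were 6.42-fold, 5.45-fold and 2.80-fold higher, and ATF4 had the most reads, 5763 in the DHA library and 2177 in the untreated library. ATF3 reached the read minimum only in the DHA library. Other genes overlap 39.6% of the exon length of DDIT3, with 27.2% taken by MARS on the opposite strand. The immediate early factors JUN and EGR1 were 2.61-fold and 2.12-fold higher, FOXO3, an activator of BCL2L11 and BBC3 in other settings, 2.11-fold, and RELA, a subunit of NF-kappaB, 2.03-fold. RELA was under 2-fold with DESeq2 size factors and with upper-quartile scaling. TP73 had 127 reads in the DHA library and 274 in the untreated library, 2.04-fold lower (1.65 to 2.54).

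Protein partners and stability regulators of the members gave 0 calls at 2-fold in 10 genes, with a median log2 ratio of 0.46. Of all genes, 6.72% were higher and 10.3% lower at 2-fold. At 1.5-fold, 5 of the 10 were higher (BTRC, DYNLL2, FBXW7, GSK3B and MARCH5) and 0 lower, beside the 18.9% of all genes on the higher side. Among genes whose products mark MCL1 for breakdown, the kinase gene GSK3B had a log2 ratio of 0.79 and the ligase genes BTRC, FBXW7 and HUWE1 had 0.70, 0.64 and -0.01. The ligase gene MARCH5 had 0.74. The deubiquitinase genes USP9X and USP13 had opposite signs, 0.30 and -0.24. DYNLL2, the dynein light chain that holds BMF, had 0.63, and TPT1, with the most reads of the list, had 10699 reads in the DHA library and 11560 in the untreated library. These lists were chosen with earlier results of these data known, and their counts describe the 2 libraries.

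**Figure D4:**
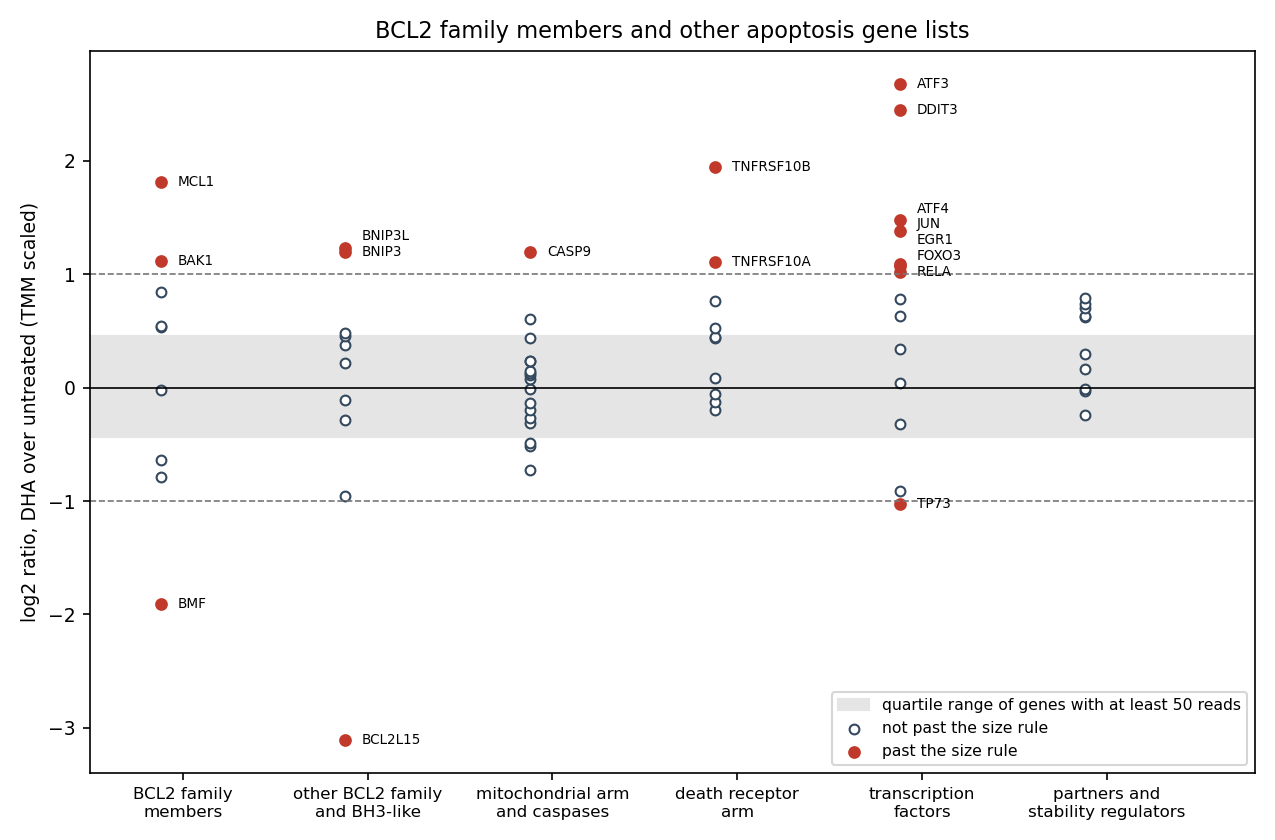
Log2 of DHA over untreated (y axis) for the BCL2 family members and 5 other gene lists, for genes with at least 50 reads. Filled symbols passed the 2-fold size rule and are named, 1 transcription factor is not drawn, dashed lines mark 2-fold, and grey marks the range between the quartiles of genes with at least 50 reads. MCL1 at 1.81 and TNFRSF10B at 1.95 are near each other, and BCL2L15 at -3.11 is the lowest point.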

How the data were processed

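The deposited values are raw counts per gene, not normalized, beside a gene length. Libraries were made from Trizol-extracted total RNA with an Illumina kit, per the labels' protocols. The submitters' processing notes name the mouse build mm8, but all 58735 gene rows match GENCODE 29 on the human build GRCh38 in identifier, name, coordinates and length. Not given in the sources used here are the aligner, the counter and the strand setting. Counts were scaled by TMM (edgeR 4.0.16, R 4.3.3), and 0.5 reads were added to each count before ratios were taken. Intervals are exact (Clopper-Pearson for ratios, Poisson for levels, conditional odds ratio for pairs; scipy 1.17.1) at 95% and cover counting error only. PCR copies of 1 molecule count more than once. A count of 0 allows up to 3 reads. The size rule was applied to all genes and was tested on simulated data. Those data were drawn with counting error alone, so that test cannot speak to variation between cultures. DESeq2 1.42.0 served for alternative scaling. All members were named, and from each other list the genes past the rule and the one with the most reads. Further genes of those lists (such as BCL2, GSK3B and HUWE1) were chosen after their values were seen. Some genes that the rule takes are left out of the text. Members and lists were chosen with earlier results of these data known. DIABLO has 2 gene rows that overlap, and the row with more reads was used.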

Additional observations from a re-analysis of the deposited data

How the results depend on the processing

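MCL1 and BAK1 were called higher under all 11 alternatives, and BMF was called lower under all but the minimum of 200 reads, where it was not tested and 0 members were lower. That minimum left 688 genes lower of 9343. A minimum of 10 reads gave 1297 genes higher and 2126 lower of 15616. At 1.5-fold, 3 members were lower, with 2284 genes higher and 2320 lower. In raw reads MCL1 held 56.0% of the family in the DHA library and 30.7% in the untreated library. Across the 7 alternatives that alter a gene's own value, the log2 ratio of MCL1 ranged over 1.75 to 1.83, of BAK1 over 1.05 to 1.29, of BMF over -1.97 to -1.80 and of BAX over -0.08 to 0.12. Adding reads of overlapping genes was chosen after seeing the data. No paired analysis was possible because each group has 1 library. Variation between cultures was not measured, and depth limits BBC3 and BMF most.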

Other observations

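The genes beside each member on the chromosome were looked at after the values were seen. For each member the nearest protein-coding gene with at least 50 reads was taken on either side, 20 genes in all, at distances of 3283 to 2000949 bases. By the 2-fold size rule 0 of them were higher and 0 lower, beside 6.72% and 10.3% of all genes with enough reads. Whether counts of 0 in 20 genes fall short of those shares was not tested. The shares cover all gene types, while the 20 genes are all protein-coding. Their log2 ratios ranged from -0.39 to 0.83 with a median of 0.11. Beside MCL1, the phosphatase inhibitor gene ENSA had 0.39 and the mitochondrial threonyl-tRNA synthetase gene TARS2 had 0.20. Beside BAK1, the calcium channel gene ITPR3 had 0.33. Beside BMF, the spindle checkpoint gene BUB1B had -0.38 and the signal recognition particle gene SRP14 had -0.31. BID and the family member BCL2L13 lie 3283 bases apart on chromosome 22, and their log2 ratios had opposite signs, -0.78 and 0.48. FTL, a ferritin gene 3503 bases from BAX, had the highest ratio of the 20, 0.83, with 54111 reads in the DHA library and 32242 in the untreated library.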
